A study of Mus musculus with 384 samples.

Results

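The comparison is between macrophages given SeV and macrophages given Poly(I:C), both among 12 innate immune ligands that were each followed for 4 h. Its members are the 56 wells labelled with either ligand at 0.5, 1, 1.5, 2, 2.5, 3 or 4 h, 28 with SeV and 28 with Poly(I:C), of 384 wells in all. Each of 4 plates holds 14 of them, 1 well per ligand and time, so every SeV well has a Poly(I:C) well of the same time on its own plate. The groups are SeV in Myd88 KO cells, SeV in WT cells, Poly(I:C) in Myd88 KO cells and Poly(I:C) in WT cells, each on 2 plates called KO1 and KO2 or WT1 and WT2, and 48 wells at time 0, 12 per plate, taken at the start under all 12 ligand labels (1 of 9216 genes differed between those labelled SeV and those labelled Poly(I:C)). The macrophages had been grown from bone marrow, taken from male C57BL/6 mice at an age of 13 weeks. KO and WT cells alike had been transduced on day 4 with a pool of viruses carrying pathway reporters and were replated into wells on day 9. The labels give no ligand dose, no position of a well on its plate and no number of mice. For tests on sums of a plate's wells, p-values therefore measure the spread between plates, which may be technical. In tests at single times that include time 0 wells, the 12 time 0 wells of a plate count as separate replicates. The spread there is thus partly between wells of the same plate. Anything tied to a well's place or to a ligand's preparation cannot be told apart from the ligand itself. In the bulk RNA of a well, fewer responding cells and a weaker response per cell cannot be told apart either.

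Poly(I:C) is a synthetic double-stranded RNA that signals from endosomes through Toll-like receptor 3 and its adaptor TRIF, and in the cytoplasm through MDA5. The labels do not spell out SeV, which in this field is the usual abbreviation of Sendai virus, an RNA virus sensed in the cytoplasm by RIG-I and the mitochondrial adaptor MAVS. Neither route needs Myd88, the adaptor of most Toll-like receptors and of the interleukin-1 receptor. Both routes activate NF-kB, which switches on cytokines, chemokines and its own inhibitors within the first hours, and the factor IRF3, which with NF-kB switches on interferon beta (Ifnb1) and directly induces genes such as Ifit1. Secreted interferon then acts through its receptor and the STAT factors on a larger set of interferon-stimulated genes. Macrophages exposed to such stimuli also lower a set of genes of the resting state, among them transcription factor genes.

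Promoters of 5 genes on which the results turn are shown because they hold, or lack, the sequence types that NF-kB and the interferon-linked factors read. They come from RefSeq's table for GRCm38.p6 (mm10), run 5′ to 3′ on the strand of the gene, and end at the base before the gene's earliest annotated start. Capitals mark matches, on either strand, to an NF-kB-type motif, GGGANNNNCC, or to an ISRE-type motif, GAAANNGAAA, the element read by IRF factors and by the interferon-activated STAT complex. Nfkbia (chr12:55492648-55492897, minus strand) encodes the NF-kB inhibitor IkB-alpha and holds 2 NF-kB-type matches and no ISRE-type match in this window:
Nfkbia: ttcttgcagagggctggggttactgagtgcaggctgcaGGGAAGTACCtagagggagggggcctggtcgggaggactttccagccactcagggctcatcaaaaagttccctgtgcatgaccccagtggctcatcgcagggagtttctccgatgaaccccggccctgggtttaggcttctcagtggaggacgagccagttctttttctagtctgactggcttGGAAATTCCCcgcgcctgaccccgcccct
Cxcl2 (chr5:90903649-90903870, plus strand), a neutrophil-attracting chemokine, holds 2 NF-kB-type matches that overlap each other:
Cxcl2: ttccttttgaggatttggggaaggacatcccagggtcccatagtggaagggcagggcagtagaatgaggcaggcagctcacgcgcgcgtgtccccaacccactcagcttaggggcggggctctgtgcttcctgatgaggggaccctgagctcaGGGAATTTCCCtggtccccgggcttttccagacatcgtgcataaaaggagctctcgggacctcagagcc
Ifnb1 (chr4:88522795-88523044, minus strand) holds 2 NF-kB-type matches and no ISRE-type match of these letters:
Ifnb1: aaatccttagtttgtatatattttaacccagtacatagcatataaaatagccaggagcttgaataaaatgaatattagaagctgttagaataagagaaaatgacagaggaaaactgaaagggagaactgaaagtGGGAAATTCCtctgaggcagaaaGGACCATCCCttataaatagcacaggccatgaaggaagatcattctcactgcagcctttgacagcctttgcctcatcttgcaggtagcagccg
Ifit1 (chr19:34640639-34640870, plus strand), an interferon-induced protein that binds viral RNA, holds 2 ISRE-type matches and no NF-kB-type match:
Ifit1: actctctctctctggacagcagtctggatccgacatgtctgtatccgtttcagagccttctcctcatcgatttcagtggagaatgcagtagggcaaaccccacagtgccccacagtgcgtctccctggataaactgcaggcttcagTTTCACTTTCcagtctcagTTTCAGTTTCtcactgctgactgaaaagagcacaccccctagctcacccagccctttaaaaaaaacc
Cxcl10 (chr5:92348890-92349139, minus strand), a chemokine for T cells, holds 1 ISRE-type and 2 NF-kB-type matches:
Cxcl10: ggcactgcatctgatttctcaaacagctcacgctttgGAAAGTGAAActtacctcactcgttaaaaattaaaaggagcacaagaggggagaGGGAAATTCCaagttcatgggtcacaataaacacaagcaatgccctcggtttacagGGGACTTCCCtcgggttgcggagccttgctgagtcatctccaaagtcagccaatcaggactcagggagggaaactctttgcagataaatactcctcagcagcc

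The deposited values are whole-number counts of 3′ digital gene expression libraries, given below as CPM, counts scaled to a common total, of a well or of a plate's summed wells. SeV wells held 166794 to 613515 counts with a median of 348001.5, and Poly(I:C) wells 254320 to 767167 with a median of 479439.5. For tests, the wells of a ligand on a plate were summed in classes, called early for 0.5 and 1 h, middle for 1.5 and 2 h and late from 2.5 to 4 h. The sums held 533158 to 1250888 counts for SeV and 746658 to 1876446 for Poly(I:C). The 12 time 0 wells of each plate made 1 sum. Myd88 averaged 17.9 ± 7.37 CPM in KO and 58.0 ± 5.18 CPM in WT plates with SeV late, 32.6 ± 7.40 CPM in KO and 114 ± 7.50 CPM in WT plates with Poly(I:C) late, and 15.8 ± 1.78 CPM in KO and 32.7 ± 3.28 CPM in WT plates at time 0 (SD, n = 2 plates each). Its 3′ end was thus lower but still counted in KO cells, and whether the deleted part reaches the counted end is not given. All 11 macrophage markers in the table were detected, with a summed level per well of 6084 to 10004 CPM (median 7666) with SeV, 8001 to 13244 CPM (median 10380) with Poly(I:C) and 6663 to 10245 CPM (median 8376) at time 0. The ribosomal transcript Rn45s took a median of 8.88% of a well's counts with SeV, 6.41% with Poly(I:C) and 8.27% at time 0. The part of the marker shift in the results was not tested. With Rn45s left out of the counts, 73 of 74 called results of named genes stayed past the threshold. Of 10 T and NK cell markers in the table, 3 had a count in SeV wells, 5 in Poly(I:C) wells and 5 at time 0, with summed levels of 0 to 33.6, 0 to 28.9 and 0 to 10.6 CPM, and Cd3e and Cd3g had none anywhere. Of 6 B cell markers 1, 1 and 3 had a count, with 0 to 21.0, 0 to 13.4 and 0 to 17.6 CPM and none for Pax5, and all 6 mast cell markers were at 0 throughout. Neutrophil and precursor markers were counted, 5, 7 and 6 of 8 in the table. Their summed levels were 65.5 to 268, 97.3 to 343 and 0 to 391 CPM (medians 142, 174 and 163 CPM). Of 6 dendritic cell markers 4 had a count in each set of wells, with medians of 7.82, 10.2 and 9.89 CPM. Of 8 stromal markers 4, 3 and 5 had a count, with at most 7.24, 16.2 and 14.0 CPM.

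One property of the Poly(I:C) wells stands before the results. Already at 0.5 h, 104 genes were higher and 117 lower in Poly(I:C) wells than in the 0.5 h wells of the other 11 ligands (edgeR quasi-likelihood test, adjusted p under 0.05 after Benjamini and Hochberg, 2.64% of 8379 genes), against 2 higher and 5 lower genes for SeV wells (0.0835%). Psap, which encodes a lysosomal saposin precursor, stood at 0.5 h at 1212 and 1360 CPM (KO) and 1080 and 1018 CPM (WT) with SeV, against 3517 and 4021 CPM (KO) and 3192 and 3003 CPM (WT) with Poly(I:C) and 1180 and 1103 CPM (KO) and 1054 and 999.5 CPM (WT) at time 0. Every Poly(I:C) well was above every SeV well and every time 0 sum, and SeV stayed lower in the early, middle and late sums, with log2 differences of -1.39 ± 0.14, -1.27 ± 0.14 and -1.05 ± 0.14 (± SE here and below; adjusted p = 1.17e-13, 7.33e-12 and 8.93e-09). Genes that were higher with Poly(I:C) at 0.5 h had a median annotated transcript length of 1710 bases, those lower 4336.5 bases and all genes tested 3446 bases. The translation factor gene Eif3a, on the lower side, stood at 2155 and 1923 CPM (KO) and 2391 and 2296 CPM (WT) with SeV late, against 1005 and 1283 CPM (KO) and 1271 and 1516 CPM (WT) with Poly(I:C). Eif3a differed by 0.91 ± 0.14 (adjusted p = 2.99e-06) and had an adjusted p of 0.0778 without WT1. As change since 0.5 h the late differences were 0.40 (adjusted p = 0.745) for Psap and 0.16 (adjusted p = 1) for Eif3a. The part of this difference at 0.5 h in later results was not tested. In SeV against Poly(I:C), 37 of the 117 genes lower with Poly(I:C) at 0.5 h were higher late with SeV, where 1.78% of all genes were, and 30 of the 104 higher ones were lower, where 1.65% were. Counted as change since the 0.5 h wells, an alternative with more counting noise chosen after the data were seen, 8 genes were higher and 10 lower late with SeV. The list of 117 genes lower with Poly(I:C) than with the other ligands at 0.5 h also holds response genes such as Nfkbia and Jun. Nfkbia was nonetheless called higher than at time 0 in the 0.5 h Poly(I:C) wells, so a place on this list does not by itself mean a fall.

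**Figure D1:**
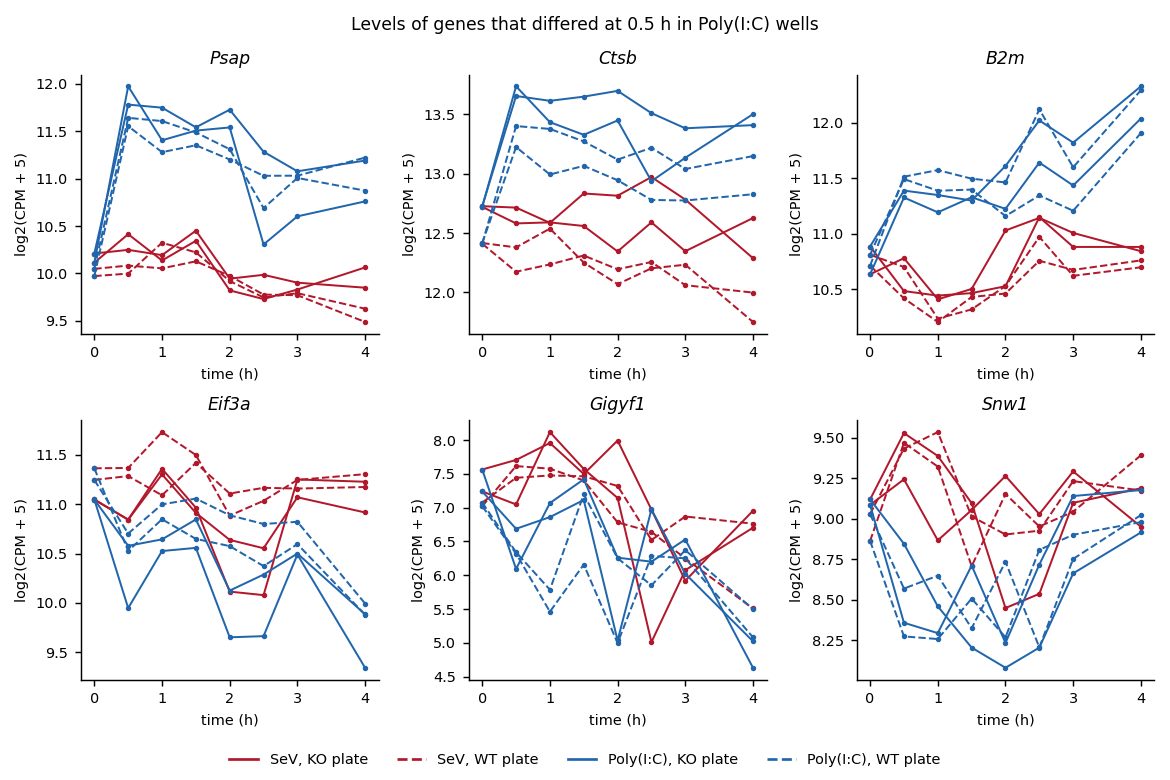
Level of Psap, Ctsb, B2m, Eif3a, Gigyf1 and Snw1 on the log2(CPM + 5) scale (vertical axis), against time in h (horizontal axis), with 1 line per plate, SeV in red and Poly(I:C) in blue, KO solid and WT dashed. Between SeV and Poly(I:C), Psap, Ctsb and Snw1 were called at 0.5 h. B2m and Gigyf1 first passed at 1 h and Eif3a at 4 h. Psap and B2m lie higher with Poly(I:C) than with SeV from 0.5 h on, and Eif3a lies mostly lower.

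The ligands differed in speed from the first hour. In the early sums SeV wells had 122 genes higher and 120 lower than Poly(I:C) wells over both genotypes (2.29% of 10562 genes), in the middle sums 230 higher and 219 lower (4.25%) and in the late sums 188 higher and 174 lower (3.43%). Higher calls made up 1.16%, 2.18% and 1.78% of all genes tested and lower calls 1.14%, 2.07% and 1.65%. Each list count of SeV against Poly(I:C) below is to be read beside these shares. The totals moved with the plates used. They were 17, 54 and 21 early, middle and late without WT1, 23, 57 and 57 without WT2, 371, 585 and 624 without KO1, and 368, 502 and 453 without KO2. Time by time, 30 genes differed at 0.5 h, 132 at 1 h, 175 at 1.5 h, 155 at 2 h, 193 at 2.5 h, 114 at 3 h and 544 at 4 h, of 9216 tested on single wells. Against the shared time 0 wells, SeV had 1, 61, 102, 171, 440, 695 and 1209 genes changed over the same times and Poly(I:C) 181, 249, 488, 724, 1349, 1355 and 2465. By 4 h, 757 genes had risen and 452 fallen with SeV, against 1215 risen and 1250 fallen with Poly(I:C). Of these, 450 risen and 80 fallen with SeV, and 698 risen and 398 fallen with Poly(I:C), were also called at 3 h. Most calls of fallen genes at 4 h thus rest on that time alone. The Poly(I:C) wells also held more counts, and the part of depth and of the 0.5 h difference in these totals was not tested.

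**Figure D2:**
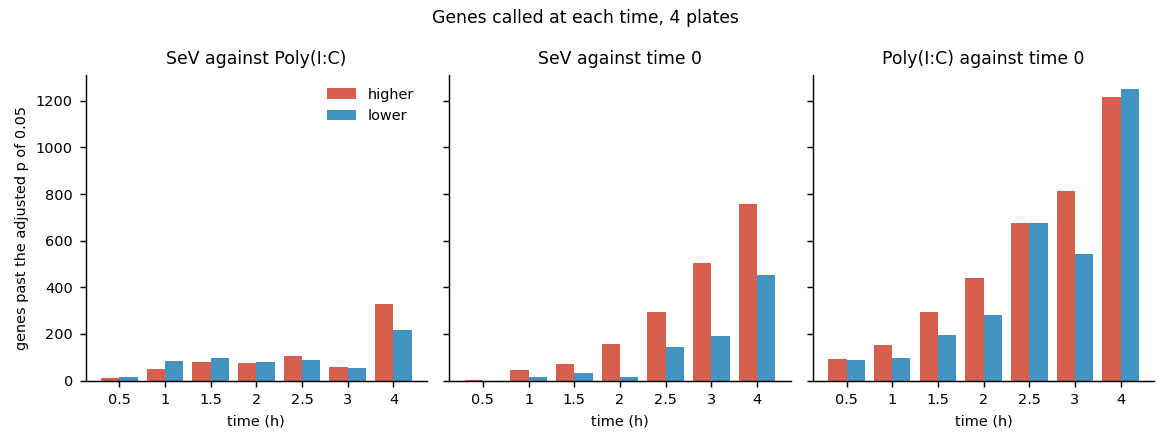
Number of genes past an adjusted p of 0.05 (vertical axes) at each time in h (horizontal axes), for SeV against Poly(I:C), SeV against time 0 and Poly(I:C) against time 0, with red bars for genes higher and blue bars for genes lower. Calls with SeV against time 0 start at 1 gene at 0.5 h and reach 1209 at 4 h, and calls with Poly(I:C) start at 181 and reach 2465.

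The NF-kB primary list rose later with SeV, and the IRF3 primary list earlier. The interferon-stimulated list reached 0.5 of its own highest median earlier with SeV. Per plate, the median change of a list's members from time 0 was followed over the wells and the time taken at which it first reached 0.5 of its highest value, called the rise time. The NF-kB primary list had a rise time of 1.397 and 1.380 h in KO plates and 2.353 and 2.334 h in WT plates with SeV, against 1.071 and 0.952 h in KO plates and 0.946 and 1.027 h in WT plates with Poly(I:C). All 4 SeV plates were later than all 4 Poly(I:C) plates, and the WT plates, where the SeV rise of this list was small, were the latest. The IRF3 primary list had a rise time of 1.943 ± 0.070 h with SeV and 2.250 ± 0.090 h with Poly(I:C) (SD, n = 4 plates each). For the interferon-stimulated list it was 2.244 ± 0.022 h with SeV and 2.554 ± 0.060 h with Poly(I:C). For both of these lists every SeV plate was earlier than every Poly(I:C) plate. The interferon-stimulated median went higher with Poly(I:C), however, at 2.257 to 2.673 at 4 h against 1.786 to 1.978 with SeV. Its mark to reach was thus higher with Poly(I:C). At 2 h the plates overlapped in level, at 0.662 to 0.797 with SeV and 0.385 to 0.717 with Poly(I:C). The same order of rise times held for the chemokine and GTPase list of the interferon-gamma type, at 2.105 ± 0.072 h with SeV and 2.548 ± 0.151 h with Poly(I:C). The interferon signalling list overlapped between the ligands, at 2.602 ± 0.178 h with SeV and 2.323 ± 0.567 h with Poly(I:C). So did 211 genes chosen from LPS wells, described further on, at 2.312 ± 0.136 h with SeV and 2.426 ± 0.080 h with Poly(I:C). Single genes showed both orders. Nfkbia had a rise time of 1.269 ± 0.039 h with SeV and 0.678 ± 0.023 h with Poly(I:C), and the cytokine brake Socs3 1.675 ± 0.096 h with SeV and 0.800 ± 0.042 h with Poly(I:C) (SD, n = 4 plates each). Ifit1 had 1.788 ± 0.051 h with SeV and 2.291 ± 0.075 h with Poly(I:C), and Rsad2, the antiviral enzyme viperin, 1.768 ± 0.030 h with SeV and 2.277 ± 0.174 h with Poly(I:C). These times are descriptions with no test, since wells 0.5 h apart bound their precision.

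**Figure D3:**
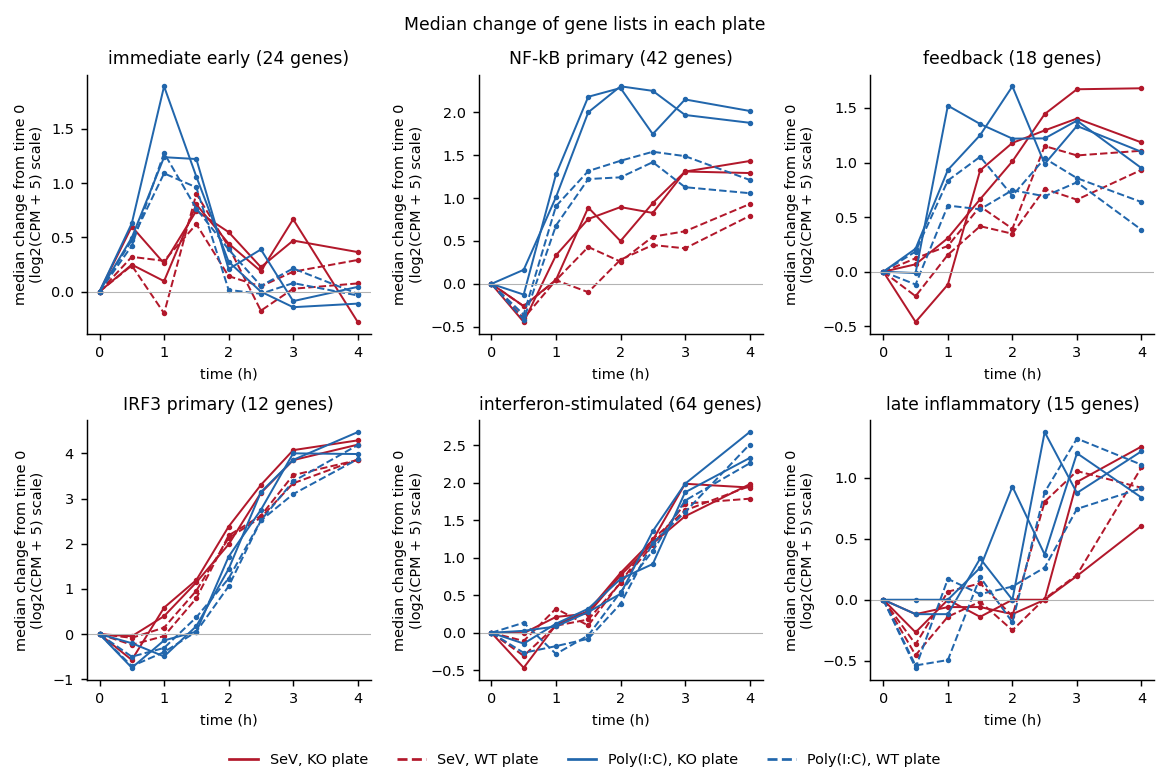
Median change from time 0 over the tested members of 6 gene lists (vertical axes, log2(CPM + 5) scale) against time in h (horizontal axes), 1 line per plate, SeV in red and Poly(I:C) in blue, KO solid and WT dashed. At 2 h the IRF3 primary median lies at 1.987 to 2.380 with SeV and 1.059 to 1.715 with Poly(I:C), while the NF-kB primary median at 1.5 h lies at -0.097 to 0.890 with SeV and 1.222 to 2.181 with Poly(I:C).

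NF-kB genes were slower and mostly lower with SeV. Of 42 tested members of the NF-kB primary list, none was higher and 11 were lower early with SeV than with Poly(I:C), none higher and 24 lower in the middle, and 2 higher and 13 lower late, with median log2 differences of -0.74, -1.18 and -0.52 beside -0.05, -0.01 and -0.01 over all genes tested. Lower calls made up 1.14%, 2.07% and 1.65% of all genes tested. Nfkbia, whose product holds NF-kB in the cytoplasm and whose promoter is shown above, stood at 1 h at 730.4 and 876 CPM (KO) and 1221 and 1115 CPM (WT) with SeV, against 8815 and 9309 CPM (KO) and 8196 and 7636 CPM (WT) with Poly(I:C) and 627 and 626 CPM (KO) and 954 and 1079 CPM (WT) at time 0. At that hour SeV wells stood close to the time 0 sum of their own plate and every Poly(I:C) well far above it. The early sums differed by a log2 value of -2.30 ± 0.17 (adjusted p = 5.69e-22), and the difference was -0.73 ± 0.17 (adjusted p = 0.00184) in the middle. Late, Nfkbia was at 5166 and 5268 CPM (KO) and 3757 and 3799 CPM (WT) with SeV, against 3512 and 2942 CPM (KO) and 3751 and 3201 CPM (WT) with Poly(I:C), and the difference of 0.52 ± 0.16 (adjusted p = 0.0531) did not pass. Poly(I:C) sums had come down between the middle and the late class and SeV sums had not. Counted as change since 0.5 h Nfkbia was higher with SeV late by 1.00 ± 0.21 (adjusted p = 0.00661). Against time 0, however, Nfkbia was called higher from 0.5 h with Poly(I:C) and only from 1.5 h with SeV. The construction subtracts that first Poly(I:C) rise, so its value does not by itself show a late excess with SeV.

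Tnf, the cytokine tumour necrosis factor, and Cxcl2 showed the same early gap. Tnf stood early at 38.0 and 34.2 CPM (KO) and 241 and 212 CPM (WT) with SeV, against 361 and 469.7 CPM (KO) and 716 and 673 CPM (WT) with Poly(I:C). Tnf differed by -2.49 ± 0.38 (adjusted p = 4.98e-06). Its late levels were 303 and 297 CPM (KO) and 576 and 490.3 CPM (WT) with SeV, against 189 and 156 CPM (KO) and 568 and 453 CPM (WT) with Poly(I:C), and the late difference of 0.54 ± 0.34 (adjusted p = 0.477) did not pass. Cxcl2 stood early at 98.4 and 74.0 CPM (KO) and 328 and 375 CPM (WT) with SeV, against 471 and 835 CPM (KO) and 1238 and 1616 CPM (WT) with Poly(I:C). Cxcl2 differed by -2.40 ± 0.32 (adjusted p = 2.6e-07). Late it was the other way round, with 158 and 279.5 CPM (KO) and 657 and 672 CPM (WT) with SeV, against 73.5 and 66.7 CPM (KO) and 393 and 409 CPM (WT) with Poly(I:C). Cxcl2 differed by 1.29 ± 0.31 (adjusted p = 0.00506). Each SeV plate was above the Poly(I:C) plate of the same number late, but KO and WT levels were far apart with both ligands, as they were at time 0 (31.3 and 34.5 CPM (KO) and 310.3 and 400.3 CPM (WT)). Tnfaip3, which encodes the deubiquitinase A20 that dampens NF-kB signalling, differed by -1.22 ± 0.27 (adjusted p = 0.00213) early and -0.80 ± 0.25 (adjusted p = 0.0449) in the middle and stood late at 475 and 368 CPM (KO) and 404 and 390.3 CPM (WT) with SeV, against 221 and 358 CPM (KO) and 348 and 292 CPM (WT) with Poly(I:C). Without any 1 plate the early calls of Nfkbia and Cxcl2 remained. Other calls did not pass without a WT plate. Their log2 differences were then -2.53 without WT1 and -2.46 without WT2 for Tnf early. In the same order they were 1.28 and 1.265 for Cxcl2 late and -0.69 and -0.81 for Nfkbia in the middle. For Tnfaip3 they were -1.36 and -1.06 early and -0.78 and -0.87 in the middle. Tnfaip3 also lost its middle call with RLE scaling (adjusted p = 0.0562) and both calls with single wells averaged (adjusted p = 0.291 early and 0.121 in the middle). Cxcl2 late was 2.04 (adjusted p = 0.0501) as change since 0.5 h and 1.24 (adjusted p = 0.0653) at 4 h alone.

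A second set of NF-kB genes stayed lower with SeV to the end. Icam1, an adhesion molecule for leukocytes, stood in the middle sums at 143 and 133 CPM (KO) and 181 and 181 CPM (WT) with SeV, against 912 and 812 CPM (KO) and 759.9 and 711 CPM (WT) with Poly(I:C), and differed by -2.24 ± 0.25 (adjusted p = 7.33e-12). Late it was at 286 and 329.5 CPM (KO) and 295 and 297 CPM (WT) with SeV, against 953 and 572 CPM (KO) and 800.3 and 923 CPM (WT) with Poly(I:C). Icam1 differed by -1.31 ± 0.23 (adjusted p = 4.51e-05). Every SeV sum was below every Poly(I:C) sum in both classes. Clec4e, the receptor Mincle, stood late at 420.4 and 323 CPM (KO) and 269 and 279 CPM (WT) with SeV, against 1394 and 1407 CPM (KO) and 1503 and 1274 CPM (WT) with Poly(I:C). Clec4e differed by -2.01 ± 0.22 (adjusted p = 8.33e-12). Bcl2a1d, a survival gene of the Bcl-2 family, stood late at 119 and 124 CPM (KO) and 70.3 and 97.8 CPM (WT) with SeV, against 487 and 604 CPM (KO) and 473 and 413 CPM (WT) with Poly(I:C). Bcl2a1d differed by -2.17 ± 0.25 (adjusted p = 4.3e-11). The Bcl2a1 copies are near-identical, so counts may be split between them, and Bcl2a1b differed in the same direction. Cd83, a maturation marker of antigen-presenting cells, had log2 differences of -1.08 ± 0.22, -1.98 ± 0.22 and -1.30 ± 0.21 in the early, middle and late sums (adjusted p = 0.000453, 6.73e-12 and 4.3e-06). The late calls of Clec4e, Bcl2a1d and Cd83 and that of Icam1 in the middle remained without any 1 plate, and Clec4e and Bcl2a1d also passed late as change since 0.5 h. The adjusted p was 0.16 without WT1 and 0.127 without WT2 for Icam1 late and 0.177 without WT1 and 0.101 without WT2 for Cd83 early. Icam1 late was -1.32 (adjusted p = 0.327) and Cd83 late -1.04 (adjusted p = 0.272) as change since 0.5 h.

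Vcam1, an adhesion molecule of the vascular type, stayed lower with SeV. It stood late at 19.5 and 17.6 CPM (KO) and 13.6 and 12.8 CPM (WT) with SeV, against 134 and 124 CPM (KO) and 169.6 and 202 CPM (WT) with Poly(I:C) and 12.8 and 10.4 CPM (KO) and 7.14 and 12.3 CPM (WT) at time 0. SeV sums lay close to time 0 and every Poly(I:C) sum was above all of them. By single times Vcam1 was higher than at time 0 with SeV at 4 h only and with Poly(I:C) from 2 h on. The late difference was -3.18 ± 0.52 (adjusted p = 4.75e-06) over both genotypes, -2.67 ± 0.71 (adjusted p = 0.0424) in KO and -3.70 ± 0.75 (adjusted p = 0.00248) in WT. Ccl5, a chemokine for T cells and monocytes that IRF3 and NF-kB both act on, stood in the middle at 109 and 114 CPM (KO) and 187 and 143 CPM (WT) with SeV, against 566 and 609 CPM (KO) and 576 and 453 CPM (WT) with Poly(I:C). Ccl5 differed by -1.92 ± 0.32 (adjusted p = 1.03e-05). Late it was at 1547 and 1261 CPM (KO) and 1163 and 1088 CPM (WT) with SeV, against 3086 and 2819 CPM (KO) and 3403 and 2365 CPM (WT) with Poly(I:C). Ccl5 differed by -1.10 ± 0.29 (adjusted p = 0.016). Every SeV sum was below every Poly(I:C) sum in both classes. Without a WT plate Ccl5 did not pass in the middle (0.0529 without WT1) or late (0.747 without WT1 and 0.37 without WT2), and these values are adjusted p. The late difference of Ccl5 was -1.51 (adjusted p = 0.39) as change since 0.5 h. Ccl5 is on the IRF3 primary list, but its rise came in the order of the NF-kB genes, with rise times of 2.453 ± 0.118 h with SeV and 1.979 ± 0.159 h with Poly(I:C) (SD, n = 4 plates each).

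A set of genes chosen from wells of other ligands was also lower with SeV on balance. It held 115 genes risen late in WT cells with each of Pam3Cys, R848 and CpG, ligands whose wells play no part in SeV against Poly(I:C). Early, 4 of these were higher and 17 lower with SeV, in the middle 3 higher and 43 lower, and late 7 higher and 29 lower, with medians of -0.12, -0.73 and -0.34. Their median change had a rise time of 2.180 ± 0.027 h with SeV and 1.226 ± 0.042 h with Poly(I:C) (SD, n = 4 plates each). In KO cells, whose time 0 wells had no part in the choice, 61 of them had risen late with SeV, where 3.31% of all genes had, and 73 with Poly(I:C), where 4.86% had. Among the members of the fixed NF-kB primary list the late counts against time 0 were 31 of 42 risen with SeV in KO and 15 in WT, where 2.53% of all genes had risen in WT, and 31 and 24 with Poly(I:C), where 3.88% had in WT .

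**Figure D4:**
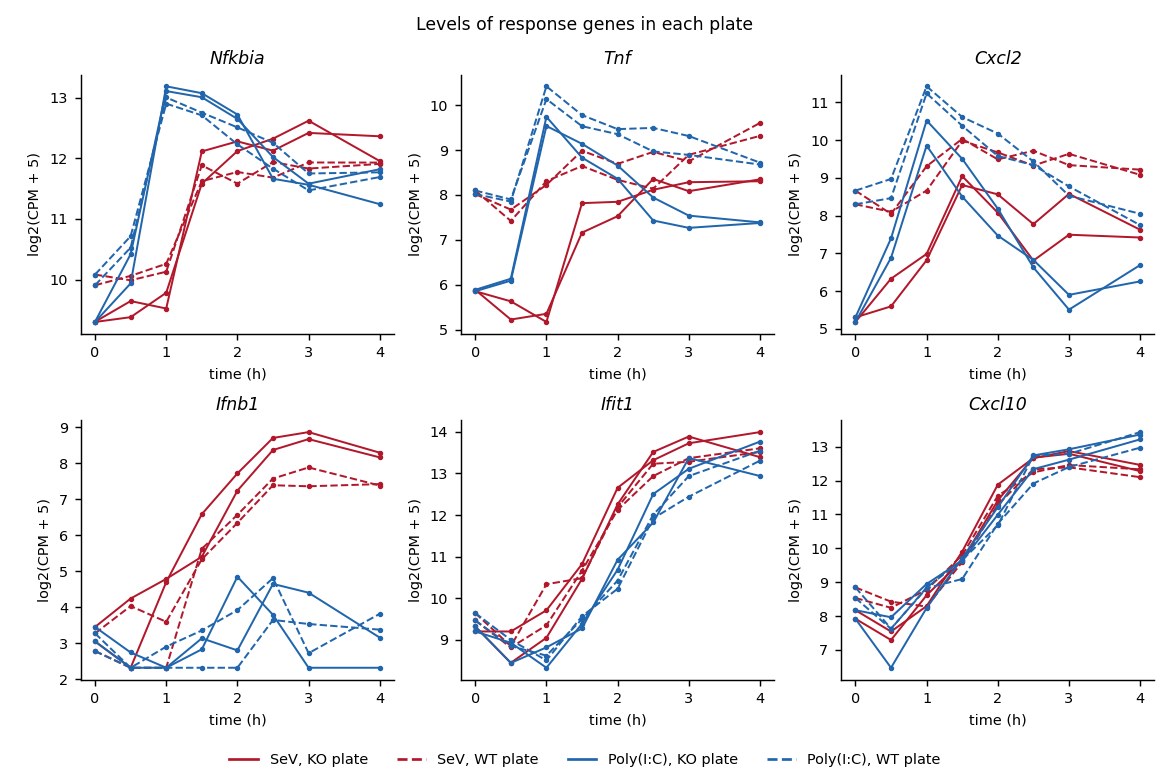
Level of Nfkbia, Tnf, Cxcl2, Ifnb1, Ifit1 and Cxcl10 on the log2(CPM + 5) scale (vertical axes) against time in h (horizontal axes), 1 line per plate, SeV in red and Poly(I:C) in blue, KO solid and WT dashed. Nfkbia, Tnf and Cxcl2 rise by 1 h with Poly(I:C) and later with SeV, Ifnb1 rises with SeV and stays low with Poly(I:C), and Ifit1 rises earlier with SeV.

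Part of the immediate early and feedback genes were lower with SeV early, and a smaller part were higher late. Of 24 tested members of the immediate early list, none was higher and 10 were lower early with SeV, 5 higher and 5 lower in the middle, and 6 higher and none lower late, and of 18 feedback genes 0, 3 and 3 were higher and 7, 5 and 0 lower. Of all genes tested 1.16%, 2.18% and 1.78% were higher and 1.14%, 2.07% and 1.65% lower in these classes. The immediate early list had a rise time of 0.310 and 1.216 h in KO plates and 0.485 and 1.295 h in WT plates with SeV, against 0.583 and 0.625 h in KO plates and 0.626 and 0.558 h in WT plates with Poly(I:C), so neither ligand was earlier in every plate. Fos, a subunit of the transcription factor AP-1, stood early at 267 and 246 CPM (KO) and 414 and 407 CPM (WT) with SeV, against 433 and 844 CPM (KO) and 979 and 930.2 CPM (WT) with Poly(I:C). Fos differed by -1.19 ± 0.27 (adjusted p = 0.00319) and had an adjusted p of 0.092 without KO2, 0.171 without WT1 and 0.0978 without WT2. In the middle it stood at 339 and 461 CPM (KO) and 559.9 and 537 CPM (WT) with SeV, against 100.4 and 186 CPM (KO) and 219 and 205 CPM (WT) with Poly(I:C). Fos differed by 1.52 ± 0.27 (adjusted p = 6.07e-05). The order thus turned between the first and the second hour in each plate. Ier2, another immediate early gene, differed early by -2.39 ± 0.37 (adjusted p = 2.14e-06), and Dusp1, a phosphatase of MAP kinases, by -2.03 ± 0.27 (adjusted p = 1.11e-08).

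Late, the AP-1 subunit gene Jun stood at 174 and 187 CPM (KO) and 221 and 190.4 CPM (WT) with SeV, against 52.2 and 77.8 CPM (KO) and 68.1 and 81.0 CPM (WT) with Poly(I:C) and 148 and 152 CPM (KO) and 157 and 176 CPM (WT) at time 0. Each SeV sum was above the time 0 sum of its own plate and every Poly(I:C) sum was below it, and the difference was 1.59 ± 0.23 (adjusted p = 2.29e-07). Klf4, a zinc finger transcription factor gene, stood at 195 and 158 CPM (KO) and 216 and 172 CPM (WT) with SeV, against 46.9 and 33.4 CPM (KO) and 32.7 and 42.4 CPM (WT) with Poly(I:C) and 70.3 and 71.3 CPM (KO) and 63.9 and 52.1 CPM (WT) at time 0. Klf4 differed by 2.36 ± 0.37 (adjusted p = 3.98e-06). Egr1, an immediate early zinc finger factor, differed by -1.71 ± 0.49 (adjusted p = 0.0406) early and 1.70 ± 0.49 (adjusted p = 0.0317) late, and neither call passed when any 1 plate was left out (adjusted p of 0.0771 without KO1, 0.289 without KO2, 0.432 without WT1 and 0.361 without WT2 early and 0.143 without KO1, 0.138 without KO2, 0.37 without WT1 and 0.319 without WT2 late). Zfp36, which encodes the mRNA decay factor tristetraprolin, differed by -1.24 ± 0.20 early, 0.98 ± 0.20 in the middle and 1.21 ± 0.20 late (adjusted p = 4.17e-06, 0.000272 and 3.7e-06). Socs3 stood early at 2.81 and 7.12 CPM (KO) and 16.9 and 37.5 CPM (WT) with SeV, against 83.9 and 95.9 CPM (KO) and 60.6 and 105 CPM (WT) with Poly(I:C). Socs3 differed by -2.83 ± 0.42 (adjusted p = 8.85e-07). Late it stood at 128 and 187 CPM (KO) and 137 and 176 CPM (WT) with SeV, against 75.1 and 53.9 CPM (KO) and 79.0 and 103 CPM (WT) with Poly(I:C). Socs3 differed by 1.14 ± 0.30 (adjusted p = 0.0143). Ppp1r15a, the stress-induced gene of the eIF2-alpha phosphatase subunit GADD34, stood late at 268 and 449 CPM (KO) and 519 and 520.1 CPM (WT) with SeV, against 73.5 and 142 CPM (KO) and 121 and 104 CPM (WT) with Poly(I:C). Ppp1r15a differed by 2.08 ± 0.36 (adjusted p = 4.75e-05), the 1 member called of 16 tested in the ATF4 and integrated stress list. Jun in the middle and late sums, Fos in the middle and the early calls of Socs3, Ier2 and Dusp1 remained without any 1 plate, and Jun and Klf4 also as change since 0.5 h. With Poly(I:C) Klf4 was called higher than time 0 at 0.5 h, a rise that this alternative subtracts. The late adjusted p was 0.18 without WT1 and 0.0569 without WT2 for Klf4, 0.658 without WT1 and 0.5 without WT2 for Socs3 and 0.0839 without WT1 and 0.0712 without WT2 for Ppp1r15a. For Zfp36 it was 0.055 without WT2 early, 0.0768 without WT1 and 0.152 without WT2 in the middle and 0.119 without WT1 late. As change since 0.5 h the late differences of 1.58 (adjusted p = 0.366) for Egr1, 1.24 (adjusted p = 0.139) for Zfp36, 0.59 (adjusted p = 1) for Socs3 and 2.22 (adjusted p = 0.0898) for Ppp1r15a did not pass. At 4 h alone neither Zfp36, at 0.86 (adjusted p = 0.0715), nor Socs3, at 0.99 (adjusted p = 0.248), passed.

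The clearest difference in interferon content was interferon beta itself. Ifnb1 stood in the middle at 97.4 and 154 CPM (KO) and 57.8 and 71.6 CPM (WT) with SeV, against 11.8 and 2.92 CPM (KO) and 8.02 and 0 CPM (WT) with Poly(I:C), and late at 326 and 402 CPM (KO) and 163 and 188 CPM (WT) with SeV, against 2.13 and 14.5 CPM (KO) and 8.85 and 6.43 CPM (WT) with Poly(I:C) and 5.97 and 3.30 CPM (KO) and 4.69 and 1.89 CPM (WT) at time 0. All SeV sums lay above all Poly(I:C) sums, which held 44 counts in all late and 20 in the middle. The differences were 4.10 ± 0.94 (adjusted p = 0.00368) in the middle and 5.11 ± 0.92 (adjusted p = 0.000134) late. By single times SeV wells passed from 1.5 h to 4 h against time 0, and Poly(I:C) wells at 2.5 h only. The late call remained without any 1 plate, and the middle call had an adjusted p of 0.214 without WT2. As change since 0.5 h, where the wells hold few counts, the late difference was 1.88 (adjusted p = 1). The promoter shown above holds NF-kB-type matches, as those of Nfkbia and Cxcl2 do. In the middle sums Ifnb1 was higher and Nfkbia lower with SeV, and late Ifnb1 and Cxcl2 were both higher.

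Genes that IRF3 induces directly mostly rose earlier with SeV, and most no longer differed late. Of 12 tested members of the IRF3 primary list, 1 was higher and none lower early with SeV, 7 were higher and 2 lower in the middle, and 2 higher and 2 lower late, with medians of 0.52, 1.41 and 0.24. Higher calls made up 1.16%, 2.18% and 1.78% of all genes tested. Ifit1 stood in the middle at 4364 and 3330 CPM (KO) and 3177 and 3356 CPM (WT) with SeV, against 1100 and 1264 CPM (KO) and 1085 and 1017 CPM (WT) with Poly(I:C) and 584 and 635 CPM (KO) and 702 and 794 CPM (WT) at time 0. Ifit1 differed by 1.76 ± 0.29 (adjusted p = 1.19e-05). Late it stood at 14360 and 12940 CPM (KO) and 10710 and 10660 CPM (WT) with SeV, against 9897 and 8214 CPM (KO) and 8604 and 6759 CPM (WT) with Poly(I:C), and the difference of 0.65 ± 0.28 (adjusted p = 0.23) did not pass. Each SeV sum was above every Poly(I:C) sum in both classes, with the gap narrower late. Rsad2 differed by 2.11 ± 0.29 (adjusted p = 9.76e-08) in the middle and by 0.82 ± 0.28 (adjusted p = 0.08) late. The middle call of Rsad2 remained without any 1 plate, and that of Ifit1 had an adjusted p of 0.0736 without WT2. Cxcl10 stood late at 6342 and 6293 CPM (KO) and 5273 and 4880 CPM (WT) with SeV, against 7157 and 8144 CPM (KO) and 8516 and 5951 CPM (WT) with Poly(I:C), with overlapping groups and a difference of -0.28 ± 0.34 (adjusted p = 0.777).

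Isg15, which encodes a ubiquitin-like modifier, did not follow Ifit1. It stood late at 624 and 598 CPM (KO) and 499.6 and 579 CPM (WT) with SeV, against 92.7 and 79.5 CPM (KO) and 61.3 and 143 CPM (WT) with Poly(I:C) and 43.0 and 50.3 CPM (KO) and 46.7 and 55.6 CPM (WT) at time 0. Isg15 differed by 2.73 ± 0.32 (adjusted p = 7.99e-10), a call that remained without any 1 plate. As change since 0.5 h the late differences did not pass, at 1.47 (adjusted p = 0.421) for Isg15 and 1.30 (adjusted p = 0.925) for Cxcl9. Every Isg15 sum with SeV was far above every one with Poly(I:C). Cxcl9, a chemokine of the interferon-gamma type, stood late at 1025 and 1262 CPM (KO) and 1469 and 1586 CPM (WT) with SeV, against 313 and 259 CPM (KO) and 373 and 325 CPM (WT) with Poly(I:C). Cxcl9 differed by 2.18 ± 0.45 (adjusted p = 0.000838) and had an adjusted p of 0.169 without WT1 and 0.149 without WT2. Iigp1, an immunity-related GTPase, stood in the middle at 465 and 603 CPM (KO) and 895 and 1223 CPM (WT) with SeV, against 78.0 and 93.4 CPM (KO) and 160.5 and 167 CPM (WT) with Poly(I:C). Iigp1 differed by 2.76 ± 0.43 (adjusted p = 2.58e-06). Socs1, which limits interferon signalling, stood in the middle at 62.1 and 119 CPM (KO) and 52.9 and 86.0 CPM (WT) with SeV, against 3.54 and 4.86 CPM (KO) and 8.02 and 20.1 CPM (WT) with Poly(I:C). Socs1 differed by 3.43 ± 0.65 (adjusted p = 0.000113) and had an adjusted p of 0.0519 without WT1. Late the differences of Iigp1 and Socs1 were 1.09 ± 0.39 (adjusted p = 0.104) and 1.07 ± 0.53 (adjusted p = 0.314), neither past the threshold.

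Irf1, a transcription factor gene of the interferon response, was slower with SeV. It stood early at 63.3 and 27.0 CPM (KO) and 70.6 and 88.2 CPM (WT) with SeV, against 165 and 204 CPM (KO) and 231 and 234 CPM (WT) with Poly(I:C) and 55.4 and 51.5 CPM (KO) and 68.5 and 79.9 CPM (WT) at time 0. Every SeV sum was below every Poly(I:C) sum. Irf1 differed by -1.72 ± 0.26 (adjusted p = 9.2e-07), a call that remained without any 1 plate, and by 1.5 to 2 h its levels were 457 and 445 CPM (KO) and 332 and 405 CPM (WT) with SeV, against 477 and 482 CPM (KO) and 391 and 409.8 CPM (WT) with Poly(I:C). Of the 20 tested genes of interferon signalling, 1 was higher and 1 lower with SeV early, 2 higher and 1 lower in the middle, and 1 higher and 2 lower late. Ikbke, an IRF3 kinase gene, was lower in the middle and late.

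Over the interferon-stimulated list few genes differed late. Of 64 tested members, 1 was higher and none lower early with SeV, 10 higher and 2 lower in the middle, and 2 higher and 1 lower late, with medians of -0.01, 0.20 and -0.11. Higher calls made up 1.16%, 2.18% and 1.78% of all genes tested and lower calls 1.14%, 2.07% and 1.65%. The early and late counts of this list lie near those shares. The antiviral GTPase gene Mx1 stood late at 676 and 673 CPM (KO) and 732 and 746 CPM (WT) with SeV, against 1285 and 1033 CPM (KO) and 1313 and 1307 CPM (WT) with Poly(I:C). Every Poly(I:C) sum was above every SeV sum, but the difference of -0.69 ± 0.31 (adjusted p = 0.252) did not pass. Against the shared time 0 wells, late, 53 of the 64 had risen with SeV in KO and 48 in WT, and 55 and 56 with Poly(I:C). Of all genes 3.31% had risen with SeV in KO and 2.53% in WT, and 4.86% and 3.88% with Poly(I:C). A set of 211 genes was chosen, with no interferon criterion, as risen late in KO cells with LPS and not in WT cells with Pam3Cys, R848 or CpG. Of these 211, 7 were higher and 4 lower early with SeV, 29 higher and 21 lower in the middle, and 17 higher and 14 lower late. Of 18 tested chemokine and GTPase genes of the interferon-gamma type none was called early, 3 were higher in the middle and 2 late with SeV, and none was lower. Among 20 tested genes of MHC class I and antigen processing, no gene was higher and 2 and 3 were lower early and in the middle, and 2 were higher and 4 lower late. One of these, B2m, the light chain of MHC class I, had log2 differences of -0.84 ± 0.17, -0.73 ± 0.17 and -0.87 ± 0.17 (adjusted p = 0.00078, 0.004 and 0.000294). Its adjusted p was 0.355 without WT1 and 0.086 without WT2 early, 0.318 without WT1 and 0.134 without WT2 in the middle and 0.301 without WT1 late. Its late difference was -0.14 (adjusted p = 1) as change since 0.5 h, and it is also among the genes higher with Poly(I:C) at 0.5 h.

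**Figure D5:**
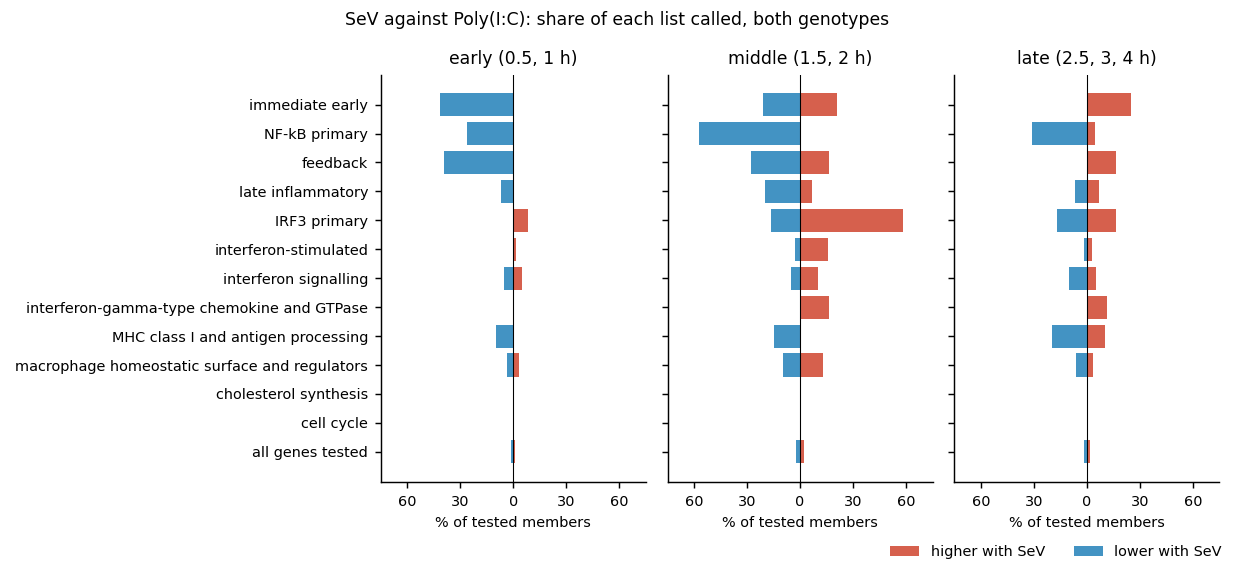
Share of the tested members of each gene list that were higher or lower with SeV than with Poly(I:C) at an adjusted p under 0.05 (horizontal axes, percent), in the early, middle and late sums, beside the share over all genes tested. In the middle, 24 of 42 NF-kB primary genes were lower with SeV and 7 of 12 IRF3 primary genes higher, where 2.07% and 2.18% of all genes were.

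Promoters of the lists differed in the motif types they hold. The ISRE-type motif stood in 3.04% of all 27025 RefSeq promoters over 250 bases and the NF-kB-type motif in 17.3%. Of the NF-kB primary genes with a promoter in the table, 0 of 35 held the ISRE-type and 14 of 35 the NF-kB-type motif, and of the IRF3 primary genes 5 of 10 held each. Of genes higher with SeV in the middle sums, 18 of 188 (9.57%) held the ISRE-type motif, and of genes lower 7 of 176 (3.98%), beside 2.88% of the tested genes with a promoter in the table. For the NF-kB-type motif the shares were 23.9% of genes higher with SeV in the middle and 30.7% of genes lower, beside 22.1%. That order was not seen early, with 29% of genes higher and 27.8% of genes lower, nor late, with 29.4% of genes higher and 27.1% of genes lower. Of the 115 genes chosen from Pam3Cys, R848 and CpG wells 24.7% held it. The ISRE-type shares were 3.23% of genes higher and 4.12% of genes lower early, and 5.88% of genes higher and 3.47% of genes lower late. A match describes the letters of the window and not a bound site.

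A pair of cytokine genes of the late inflammatory list differed in opposite directions. Il6, which encodes interleukin 6, stood late at 41.5 and 55.5 CPM (KO) and 30.4 and 64.9 CPM (WT) with SeV, against 4.80 and 10.3 CPM (KO) and 27.2 and 14.8 CPM (WT) with Poly(I:C). Il6 differed by 2.05 ± 0.63 (adjusted p = 0.045). In the middle it stood at 5.04 and 29.0 CPM (KO) and 24.6 and 57.3 CPM (WT) with SeV, 77 counts in all, against 0 and 0 CPM (KO) and 9.17 and 9.38 CPM (WT) with Poly(I:C), 15 counts in all with none in KO. Il12b, the p40 subunit of interleukins 12 and 23, went the other way, with 0 and 10.6 CPM (KO) and 45.5 and 51.9 CPM (WT) in the middle with SeV, against 124 and 201 CPM (KO) and 349.6 and 284 CPM (WT) with Poly(I:C). Il12b differed by -3.65 ± 0.52 (adjusted p = 4.7e-07). Late it stood at 37.3 and 103 CPM (KO) and 102 and 67.0 CPM (WT) with SeV, against 111 and 128 CPM (KO) and 349 and 433 CPM (WT) with Poly(I:C). Il12b differed by -1.38 ± 0.41 (adjusted p = 0.0384). Every SeV plate was below the Poly(I:C) plate of the same number in both classes. Of the 15 tested members of this list, 1 was lower early with SeV, 1 higher and 3 lower in the middle, and 1 higher and 1 lower late. The adjusted p was 0.58 without WT1 and 0.742 without WT2 for Il6 late, and 0.0591 without WT1 in the middle and 0.743 without WT1 and 0.709 without WT2 late for Il12b. Late, as change since 0.5 h, the differences were 2.13 (adjusted p = 1) for Il6 and -1.97 (adjusted p = 1) for Il12b, and at 4 h alone 2.46 (adjusted p = 0.124) and -1.01 (adjusted p = 0.324).

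Among genes that fall after stimulation, more were higher than lower with SeV from the middle sums on. The set held 184 genes fallen late in WT cells with LPS, lipopolysaccharide. Levels with SeV and Poly(I:C) did not enter that choice, but all ligands share 1 estimate of spread in the fit. Early, 3 of these were higher and 2 lower with SeV than with Poly(I:C), in the middle 19 higher and 2 lower, and late 24 higher and 1 lower, with medians of -0.02, 0.37 and 0.51. In KO cells, whose time 0 wells had no part in the choice, 19 of them had fallen late with SeV, where 0.426% of all genes had, and 82 with Poly(I:C), where 3.1% had. The median change of the set at 1 h was -0.154 and -0.399 in KO plates and -0.143 and -0.236 in WT plates with SeV, against -0.169 and -0.175 in KO plates and -0.010 and -0.104 in WT plates with Poly(I:C). At 3 h it was -0.877 and -0.897 in KO plates and -0.839 and -0.773 in WT plates with SeV, against -1.185 and -1.276 in KO plates and -1.296 and -1.146 in WT plates with Poly(I:C). At 1 h the plates overlapped, and at 3 h every SeV plate had fallen less.

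Sox4, a transcription factor gene of the resting state, stood in the middle at 564 and 641 CPM (KO) and 375 and 449.5 CPM (WT) with SeV, against 131 and 187 CPM (KO) and 57.3 and 104 CPM (WT) with Poly(I:C) and 975 and 946 CPM (KO) and 529 and 386 CPM (WT) at time 0. Sox4 differed by 2.23 ± 0.45 (adjusted p = 0.000505). Late it stood at 78.8 and 106 CPM (KO) and 83.1 and 88.3 CPM (WT) with SeV, against 50.1 and 57.3 CPM (KO) and 21.8 and 21.9 CPM (WT) with Poly(I:C). This difference of 1.49 ± 0.47 (adjusted p = 0.0597) did not pass. In the middle SeV sums of WT cells were near time 0 while all Poly(I:C) sums were well below it, and late all sums of both ligands were far below time 0. By single times Sox4 was lower than at time 0 from 2.5 h with SeV and from 1.5 h with Poly(I:C). At 0.5 h it stood at 1198 and 1263 CPM (KO) and 659 and 636 CPM (WT) with SeV, against 494 and 623 CPM (KO) and 276 and 299.6 CPM (WT) with Poly(I:C), so the levels were apart at the first time although that difference did not pass (adjusted p = 0.402). Rasgrp3, an activator of Ras and Rap GTPases, stood late at 91.5 and 74.98 CPM (KO) and 112 and 131 CPM (WT) with SeV, against 34.1 and 40.2 CPM (KO) and 48.4 and 32.1 CPM (WT) with Poly(I:C) and 278 and 297 CPM (KO) and 323 and 274 CPM (WT) at time 0. Rasgrp3 differed by 1.49 ± 0.31 (adjusted p = 0.00078). All SeV sums were above all Poly(I:C) sums and below all time 0 sums. The adjusted p was 0.172 without WT1 and 0.102 without WT2 for Sox4 in the middle and 0.0697 without WT1 and 0.204 without WT2 for Rasgrp3 late. Rasgrp3 late was 1.57 (adjusted p = 0.0627) as change since 0.5 h. Of 31 tested genes of the macrophage surface and its regulators, 1 was higher and 1 lower with SeV early, 4 higher and 3 lower in the middle, and 1 higher and 2 lower late. Csf1r, the receptor of the growth factor the cells are raised in, stood late at 1229 and 1072 CPM (KO) and 1072 and 999 CPM (WT) with SeV, against 1151 and 976 CPM (KO) and 1049 and 906 CPM (WT) with Poly(I:C). Its difference of 0.21 ± 0.16 (adjusted p = 0.584) did not pass.

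Lists of metabolism and growth held few or no called genes but for ribosomal and respiratory genes. No gene of 19 tested in cholesterol synthesis, 30 in cell cycle and 13 in LXR and lipid efflux was called in any class. Of 26 ribosomal protein genes 3 were lower early and 2 in the middle with SeV, and of 25 respiratory chain genes 2 in the middle, with none called in the late sums. At 4 h alone 8 of the 26 and 4 of the 25 were lower with SeV, where 2.33% of all genes were. Both lists were apart from the first time. At 0.5 h the ribosomal median lay at 0.268 to 0.394 with Poly(I:C) and -0.189 to 0.154 with SeV. The respiratory median lay at 0.309 to 0.545 with Poly(I:C) and -0.123 to 0.120 with SeV. The part of this first difference in the later calls was not tested. Of 21 genes of RNA and DNA sensing, 1 was lower in the middle and late, Ikbke, and the others did not pass. Of 17 cell death genes 1 was lower early, 2 in the middle and none late.

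Finally, the ligand difference was set against genotype. In KO cells alone 24 genes were higher and 26 lower with SeV early (0.473%), 59 and 80 in the middle (1.32%) and 53 and 30 late (0.786%), and in WT cells alone 7 and 19 early (0.246%), 30 and 42 in the middle (0.682%) and 23 and 31 late (0.511%). The test of the difference between genotypes called 1 gene early (0.00947%) and none in the middle or late (edgeR quasi-likelihood test, 286, 329 and 210 genes at an unadjusted p under 0.05, with no gene by DESeq2 late). A call in KO cells and not in WT cells is therefore not shown to differ between them. The gene was Il1b, which encodes interleukin 1 beta, at 42.2 and 24.2 CPM (KO) and 418 and 579.6 CPM (WT) early with SeV, against 402 and 419 CPM (KO) and 707 and 869.7 CPM (WT) with Poly(I:C) and 37.7 and 35.8 CPM (KO) and 485 and 604 CPM (WT) at time 0. With SeV both genotypes were near their own time 0 levels, which differ widely, and with Poly(I:C) KO plates were far above theirs. The early difference was -3.55 ± 0.47 (adjusted p = 3.37e-07) in KO and -0.59 ± 0.38 (adjusted p = 0.768) in WT, and KO minus WT was -2.96 ± 0.60 (SE, adjusted p = 0.0491). Its adjusted p was 1 without WT1 and 1 without WT2, 0.0672 with RLE scaling, 0.0504 without Rn45s and 1 with single wells averaged.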

How the data were processed

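The deposited values are whole-number counts per gene and well, from libraries read at transcript 3′ ends (SCRB-Seq with changes and Nextera tagmentation, per the labels' protocols), aligned to mm10 with BWA per the submitters' processing notes. The sources used here do not give the aligner's version, the annotation, the counting program or the use of molecular identifiers. The table holds 23481 genes, of which 7381 have no count.

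Counts of each ligand were summed per plate over early (0.5, 1 h), middle (1.5, 2 h) and late (2.5, 3, 4 h) wells, and the 12 time 0 wells of a plate into 1 sum. Sums of all 12 ligands were fitted together with edgeR 4.0.16 in R 4.3.3 (quasi-likelihood test, robust, TMM scaling, filterByExpr with a minimum count of 10, 10562 genes kept), which shares 1 estimate of spread over ligands. Single times were fitted on wells of SeV, Poly(I:C) and time 0 (9216 genes). All time 0 wells of a genotype made 1 group there, so wells of the same plate enter the estimate of spread as replicates. A gene is called at a Benjamini-Hochberg adjusted p under 0.05. Log2 differences are SeV over Poly(I:C). Levels are CPM computed from the counts, and rise times use medians on the log2(CPM + 5) scale. Both ligands share the time 0 wells, so their changes from time 0 are given side by side.

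The members and lists were chosen with earlier results of these data known. Named genes are 42 fixed response genes, up to 10 called genes per direction with at least 30 counts and 1 direction in every plate (3 for single times), and up to 4 members of each list with the smallest p. Psap and Rasgrp3 entered under that rule through other comparisons. Eif3a, Csf1r and Myd88 were chosen after their values were seen. Some genes are not reported here. On simulated counts of this size 18.4% of genes changed 2-fold and 49.0% changed 4-fold were recovered late (10058 genes), so an uncalled gene may still differ. Alternatives were DESeq2 1.42.0, other scalings, other sums, single wells, other pseudocounts and leaving out each plate. Replicate plates differed by more than sampling noise in all 28 groups checked.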

Additional observations from a re-analysis of the deposited data

Results flagged for a closer look

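Il1b early was the 1 result in which the genotypes differed by the test of the difference itself: SeV against Poly(I:C) was lower in KO than in WT cells by a log2 value of -2.96 ± 0.60 (SE, edgeR quasi-likelihood test, adjusted p = 0.0491). The difference was -3.55 ± 0.47 in KO and -0.59 ± 0.38 in WT cells, with both KO plates on the same side. Its adjusted p lies just under the threshold, and over the alternatives the value ranged between -3.41 and -1.89. The call was lost with RLE scaling (adjusted p = 0.0672), without Rn45s (0.0504), without WT1 (1), without WT2 (1) and with single wells averaged (1).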

How the results depend on the processing

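Most counts of called genes depended on how the spread was estimated, and directions of named genes did not, with 1 exception. Of 74 called gene results, 74 stayed past the threshold with DESeq2, without the filter on low counts and when only SeV, Poly(I:C) and time 0 sums were fitted, 71 with RLE scaling, 73 without Rn45s, 69 with single wells averaged, 71 without KO1, 69 without KO2, 30 without WT1 and 33 without WT2. Of 30 called late, 12 stayed as change since 0.5 h and 24 at 4 h alone. With DESeq2 the early, middle and late counts of SeV against Poly(I:C) were 1004, 1166 and 1219, late in KO 595 and in WT 535, and against time 0 late with SeV 799 in KO and 592 in WT and with Poly(I:C) 1702 in KO and 1255 in WT. With only the sums of these ligands they were 911, 1081 and 1154, 481 and 398, 778 and 547, and 1667 and 1218. With single wells averaged the late counts were 1174, KO 450, WT 323, SeV against time 0 KO 1222 and WT 797, Poly(I:C) KO 2476 and WT 1761. With 4 h alone they were 544, KO 130, SeV against time 0 KO 691 and WT 562, Poly(I:C) KO 1555 and WT 1103. As change since 0.5 h 18 genes were called late, 0 in KO and 1 in WT, and Psap reversed to 0.40, as the construction subtracts its 0.5 h difference. Without genes changed at 0.5 h the early count was 140 and the late WT count 35. Genes also called at a neighbouring time numbered 15, 45, 79, 92, 88 and 59 at 0.5, 1, 1.5, 2, 2.5 and 4 h. Without the filter SeV against time 0 at 0.5 h had 11 calls. With a pseudocount of 20 the rise time of the 115 genes chosen from Pam3Cys, R848 and CpG wells was 2.052 h with SeV.

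Leaving out 1 plate gave 17 to 371 early, 54 to 585 middle and 21 to 624 late calls, 9 to 168 late in KO, 0 to 229 late in WT and 0 to 0 for the genotype difference. Late counts against time 0 ran over 263 to 338 (SeV, KO), 55 to 465 (SeV, WT), 488 to 687 (Poly(I:C), KO) and 83 to 973 (Poly(I:C), WT). Over the single times from 0.5 to 4 h the ranges were 1 to 25, 19 to 73, 20 to 121, 32 to 113, 17 to 113, 12 to 56 and 87 to 405 for SeV against Poly(I:C), 1 to 2, 11 to 28, 30 to 64, 97 to 133, 213 to 348, 396 to 566 and 645 to 1027 for SeV against time 0, and 18 to 110, 67 to 182, 157 to 425, 245 to 631, 456 to 1092, 649 to 1084 and 1339 to 2105 for Poly(I:C) against time 0. The median estimate of spread (dispersion) in the fit of sums was 0.156 with all plates. It was 0.211 without WT1, 0.212 without WT2, 0.117 without KO1 and 0.112 without KO2. The cause of these shifts was not tested.

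SeV and Poly(I:C) sums of the same plate number did not deviate together: within a genotype, the correlation over genes of their plate deviations was -0.009 to 0.073. With the replicate block 284, 495 and 422 genes were called early, in the middle and late, and no named call was lost. The shallowest well held 166794 counts, so genes of low level are measured least precisely.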
